A study of Arabidopsis thaliana with 4 samples.

Results

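The pentatricopeptide repeat (PPR) genes examined here were the protein-coding genes of the 5 nuclear chromosomes of *Arabidopsis thaliana* whose mRNA product is annotated as a Pentatricopeptide repeat (PPR) superfamily protein in RefSeq's annotation of TAIR10. This rule took 200 of 27444 protein-coding genes and used no measured value. It did not take the whole family, because 488 genes carry the word pentatricopeptide somewhere in their annotation. RNA Pol II ChIP-seq had been carried out on crosslinked leaves of 21-day-old plants, from the wild type Col-0 (WT) and from *hyl1-2*, a knock-out mutant of *HYL1* in the same tissue. For each genotype there was 1 input library, which is chromatin sequenced without the antibody step, and 1 ChIP library made with an antibody against total RNA Pol II. No agent was applied to either genotype. The inputs held 17734005 (WT) and 22766187 (*hyl1-2*) reads, and the ChIP libraries 37717174 (WT) and 30333558 (*hyl1-2*). With 1 library per condition no difference has a replicate check, no test was made, and every 95% interval of a fold change covers counting error in the reads alone. A leaf holds several cell types, so RNA Pol II on a gene in fewer cells and less RNA Pol II per cell cannot be told apart.

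PPR proteins are built of short tandem repeats of paired helices, and the repeats contact successive bases of an RNA. Plants have far more of them than animals or fungi. Most are encoded in the nucleus, made in the cytosol and imported into chloroplasts or mitochondria, where they take part in the editing, splicing, cleavage, stabilization and translation of organelle RNAs. Many plant PPR genes lack introns, and one subgroup, whose members in mitochondria include restorers of fertility, has multiplied in tandem on chromosome 1. Transcripts of that subgroup are known targets of miR161 and miR400, and the cleaved transcripts give rise to secondary siRNAs. HYL1 is a double-stranded RNA-binding protein that assists DCL1 in cutting miRNAs from their precursors, so the family meets the mutant both as ordinary protein-coding genes and as miRNA targets.

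The miRNAs and their sites are shown first because the site genes were chosen by them. The MIR161 locus (AT1G48267, chromosome 1) gives miR161.1 and miR161.2, whose sequences overlap, and MIR400 (AT1G32582, chromosome 1) lies within the gene AT1G32583. The 3 mature sequences, read from the TAIR10 reference sequence (RefSeq), are written 5′ to 3′ as DNA with the seed (bases 2 to 8) in capitals. The 3 seeds differ from each other.
miR161.1: tGAAAGTGactacatcggggt
miR161.2: tCAATGCAttgaaagtgacta
miR400: tATGAGAGtattataagtcac

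A site was a stretch of an annotated spliced mRNA that pairs with the miRNA without gaps, with a score of at most 4 (mismatch 1, G:U pair 0.5, doubled at miRNA positions 2 to 13). By this rule 13 of the 200 members had a site. Of the 13 genes, 12 had a miR400 site, 8 a miR161.2 site and 5 a miR161.1 site. All protein-coding genes together gave 32 site genes, and 17 of the 19 outside the 200 are annotated with the word pentatricopeptide. The sites that follow are among the best-scoring of each miRNA in the members, with bases in Watson-Crick pairs in capitals and mismatches and G:U pairs in lower case.
AT1G06580, miR400 site: GTGACTTATAATACTCTCATA
AT3G22470, miR400 site: GTGACTTATAgTAtTCTCATA
AT1G63330, miR161.2 site: TAGTCACgTTCAATGCATTGA
AT1G63400, miR161.2 site: TAGTCACTTTCAAcGCATTGA
AT1G63400, miR161.1 site: AtCCaaATGTAGTCACTTTCA
The miR400 site of AT1G06580 (chromosome 1, 2014950 to 2014970, minus strand) pairs at every base (score 0). That of AT3G22470 (chromosome 3, 7966750 to 7966770, minus strand) has 2 G:U pairs. The site of AT1G63330 (chromosome 1, 23490603 to 23490623, plus strand) has 1 mismatch. In AT1G63400 the miR161.1 site (23508299 to 23508319) and the miR161.2 site (23508308 to 23508328) overlap, as the miRNAs do. All 5 sites lie in coding sequence.

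As a group the members had the gene structure that the family is known for. Of the 200 genes, 117 (58.5%) had no intron in any annotated mRNA, against 18.9% of all protein-coding genes. Their median length was 2240.5 bp, against 2078 bp for all genes. Median GC content was 40.7% over the gene and 35.0% over the 200 bp upstream, against 38.9% and 31.5%. Chromosome 1 held 61 members, chromosome 2 24, chromosome 3 43, chromosome 4 25 and chromosome 5 47. The coding sequence of 24 members ended with codons for Asp-Tyr-Trp, the end that names the DYW class of editing factors. The annotation named the mitochondrion for 22 members and the chloroplast for 19.

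Neighbouring genes were close. Another protein-coding gene overlapped the 200 bp upstream of 85 members. That window was free of other protein-coding genes at 115 of 200 members and at 21577 of 27444 protein-coding genes. No other protein-coding gene lay within 500 bp of 25 of the 200 members and of 9149 of the 27444 genes. In those 200 bp, the letters TGGGC (site II element, either strand) occurred at 30.0% of members and at 20.5% of all genes. Among promoters free of another protein-coding gene the shares were 39.1% of 115 members and 19.2% of all genes. TATAAA on the gene strand occurred at 17.0% of members and 28.3% of all genes, and AAACCCTA (telo-box, either strand) at 5.50% and 3.72%. The median log2 fold change of the promoter was 0.58 for the 59 tested members with TGGGC and 0.46 for the 139 without it. For all genes these medians were 0.59 and 0.37.

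RNA Pol II occupancy was taken as the ratio of ChIP RPM to input RPM in a genotype, where RPM is the read count scaled to library size (reads per 1e6 reads). The fold change is the *hyl1-2* ratio divided by the WT ratio. The promoter was a window of 200 bp ending at the start of the gene, and the whole gene ran from the first to the last annotated base. A fold change above 1.2 is called higher and one below 0.8 lower. Counting error alone gave the median member an interval from 1.67-fold below to 1.67-fold above its promoter value, and 1.18-fold for the whole gene.

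Values of the whole series bear on how the ratio can be read. Over *HYL1* itself the ratio was 1.19 in WT and 3.79 in *hyl1-2* (fold change 3.19, 2.75 to 3.71), which does not check the labels, since ChIP counts DNA and not transcripts. Genes that leaves are known to transcribe strongly did not stand out in WT. The 4 genes annotated as the small subunit of Rubisco had ratios of 0.557 to 0.880 in WT, all below 1, and of 1.74 to 2.69 in *hyl1-2*. The median of 14 chlorophyll binding protein genes was 0.948 in WT and 1.37 in *hyl1-2*. The WT ratio is the divisor of every fold change and the level on which each WT comparison rests, and the part that a weak enrichment of the WT ChIP library may have in the results was not tested. Across all genes the log2 ratio was related to GC content, with Pearson's r of 0.498 in WT and 0.353 in *hyl1-2* over 27441 genes. Across the 200 members r was 0.551 and 0.349. These correlations are across genes of the same libraries and are given as a description. The part of GC content in the results below was tested only by the correction for it.

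Over the whole gene, PPR genes carried a higher ratio in WT than protein-coding genes at large, and less so in *hyl1-2*. All 200 members had enough reads, with medians of 359 (WT) and 475.5 (*hyl1-2*) in the inputs and of 921.5 and 678 after ChIP. The median ratio in WT was 1.197, with 25th and 75th percentiles of 1.07 and 1.34, whereas all genes had a median of 1.03 with percentiles of 0.838 and 1.27. In WT only 15.5% of members lay below 1, against 45.7% of all genes. In *hyl1-2* the median of the members was 1.06 (all genes 1.02) and 28.5% lay below 1 (all genes 45.8%). High ratios were not frequent in the family. A ratio above 1.5 was reached by 17 members in WT (8.50%, background 10.9%) and by 13 in *hyl1-2* (6.50%, background 10.2%). The 2571 other genes of 1 to 3 kb without introns had median ratios of 1.15 in WT and 1.14 in *hyl1-2*, so the medians of the genotypes lay further apart in the PPR genes than in these.

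**Figure D1:**
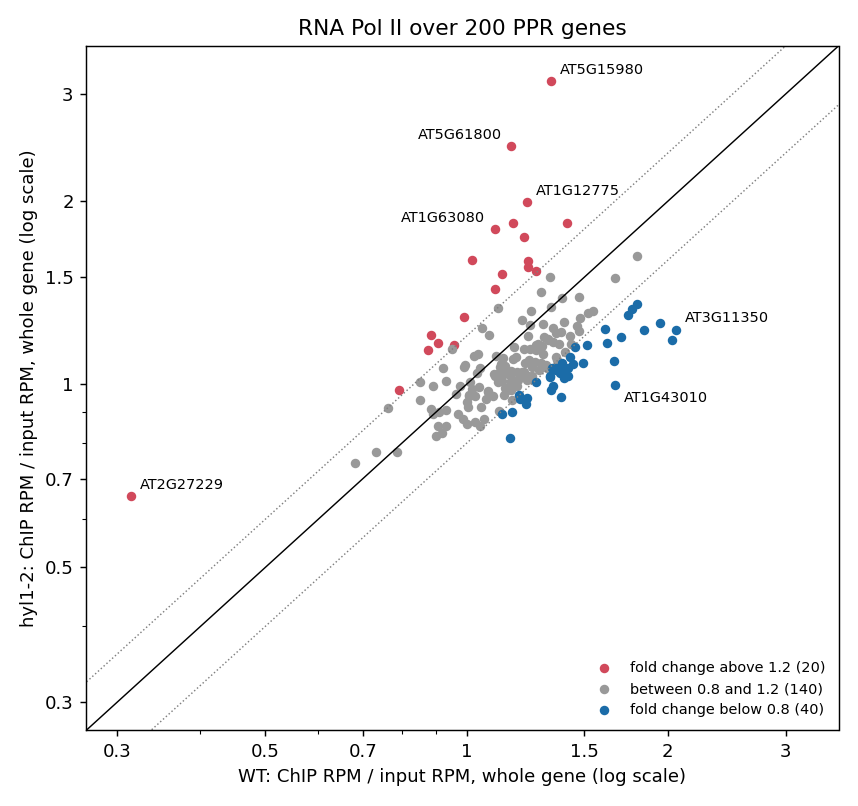
Whole-gene ChIP over input of each of the 200 PPR genes (points) in WT and in *hyl1-2*, both on log axes. The solid line marks equal ratios and the dotted lines fold changes of 1.2 and 0.8. Most points lie just below the solid line between 1 and 1.5 in WT, 20 lie above the upper line and 40 below the lower one.

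The fold change over the whole gene was correspondingly low and narrowly spread. On the log2 scale the median was −0.16 (−0.20 to −0.13 by order statistics over members), against −0.06 for all genes and −0.02 for the other intronless genes of 1 to 3 kb. The 25th and 75th percentiles were −0.28 and −0.00127 for the members and −0.29 and 0.28 for all genes. The 25th percentiles thus lay together, while the 75th percentile of the family was lower. Higher in *hyl1-2* were 20 members (10%, Wilson interval 6.57 to 14.9), where the background was 25.9%. Lower were 40 members (20.0%, 15 to 26.1), with a background of 21.4%. The count of lower members moved with the setting, to 17 (8.50%, all genes 17.98%) without division by input and to 65 (32.5%, all genes 26.5%) in the inner part of the gene, without 300 bp at each end. With every library scaled on intergenic windows, which shifts all log2 fold changes by −0.17, 9 members were higher (4.50%, all genes 19.0%) and 101 lower (50.5%, all genes 40.0%). The 288 other genes annotated with the word pentatricopeptide had a median of −0.18, with 10.1% higher and 17.4% lower.

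At the promoter the values of the members lay near those of all genes. Of 198 tested promoters, 127 were higher in *hyl1-2* (64.1%, 57.3 to 70.5, background 58.6%) and 17 were lower (8.59%, 5.43 to 13.3, background 11.7%). The median log2 fold change was 0.48 (0.38 to 0.58), against 0.42 for all genes. The median ratio went from 0.568 in WT to 0.751 in *hyl1-2*, both below 1 with each library scaled to its total. All genes had 0.521 and 0.722. Scaled on intergenic windows the medians of the members were 1.14 and 1.35, both above 1, and those of all genes 1.05 and 1.30. A promoter ratio above 1.5 was reached by 4 members in WT (background 4.27%) and by 13 in *hyl1-2* (background 5.44%). That scaling left 110 promoters higher (55.6%, all genes 49.4%) and 34 lower (17.2%, all genes 18.7%). The promoters of AT2G27229 and AT5G08510 had fewer than 10 reads in WT ChIP (9 and 7) and were not tested. Promoter and gene went apart in most members, since the promoter fold change exceeded that of the whole gene in 170 of 198 (85.9%), against 76.7% of all genes. Of the 198, 99 were higher at the promoter and between the thresholds over the gene (50%, all genes 31.3%). Higher in both were 15 (7.58%, all genes 21.7%), and 13 were higher at the promoter and lower over the gene (6.57%, all genes 5.55%).

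Along the gene, *hyl1-2* lay above WT next to the 5′ end and below it in the middle and towards the 3′ end. The fold change of mean coverage was 1.37 in the first 50 bp and 0.791 in the bin at 1300 bp. Mean coverage of the members in WT fell to 0.595 of input in the bin from 200 to 150 bp upstream. It then rose past the 5′ end and went on rising, to 1.21 in the bin at 500 bp downstream and 1.61 in the bin at 1250 bp. In *hyl1-2* the trough was shallower (0.864 in the bin from 250 to 200 bp upstream), coverage reached 1.22 at 250 bp downstream, and it stood at 1.28 at 1250 bp. The curves crossed near 450 bp downstream, where WT had 1.193 and *hyl1-2* 1.194. Means over all genes did not cross, with 1.18 in WT and 1.29 in *hyl1-2* at 1250 bp, and those of the other intronless genes peaked near 600 bp at 1.61 in WT and 1.78 in *hyl1-2*. These are ratios of mean coverage, to which genes with many reads add most, whereas the medians above give each gene the same weight.

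**Figure D2:**
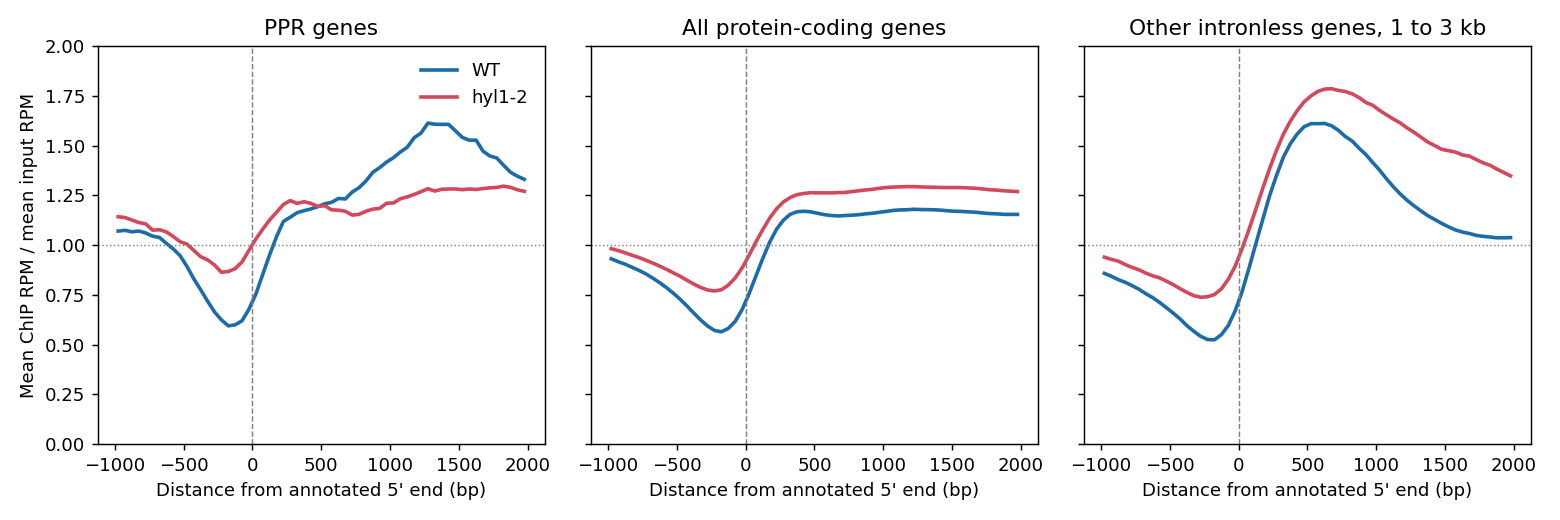
Mean ChIP RPM divided by mean input RPM in bins of 50 bp from 1000 bp upstream to 2000 bp downstream of the annotated 5′ end, in WT (blue) and *hyl1-2* (red), for the PPR genes, all protein-coding genes and the other intronless genes of 1 to 3 kb. In PPR genes the WT curve lies under the *hyl1-2* curve at the promoter and over it beyond about 500 bp, reaching 1.61 at 1250 bp where *hyl1-2* has 1.28.

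To allow for gene length, each gene was cut into 3 parts of equal length, a choice made after the profile had been seen. The members had median ratios of 0.971 (WT) and 0.977 (*hyl1-2*) in the 5′ part, of 1.40 and 1.13 in the middle part, and of 1.30 and 1.16 in the 3′ part. The median log2 fold change was −0.0026 in the 5′ part (all genes 0.04), −0.28 in the middle part (all genes −0.15) and −0.20 in the 3′ part (all genes −0.07). In the middle part 87 members were lower (43.5%, background 30.9%) and 9 higher (4.50%, background 21.9%). In the 3′ part 69 were lower (34.5%, background 25.2%) and 25 higher (12.5%, background 28.3%), and in the 5′ part 22 were lower (11.0%, background 20.9%) and 39 higher (19.5%, background 34.4%). In WT the 3′ part lay above the 5′ part in 164 of 200 members (82.0%), against 66.3% of all genes and 48.6% of the other intronless genes. In *hyl1-2* this held for 139 members (69.5%, all genes 65.9%). Median GC content was 41.5% in the 5′ part, 41.0% in the middle part and 39.4% in the 3′ part of the members. With each fold change corrected for the GC content of its window, in 2-point bins, the medians of the 3 parts were 0.06, −0.23 and −0.15.

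**Figure D3:**
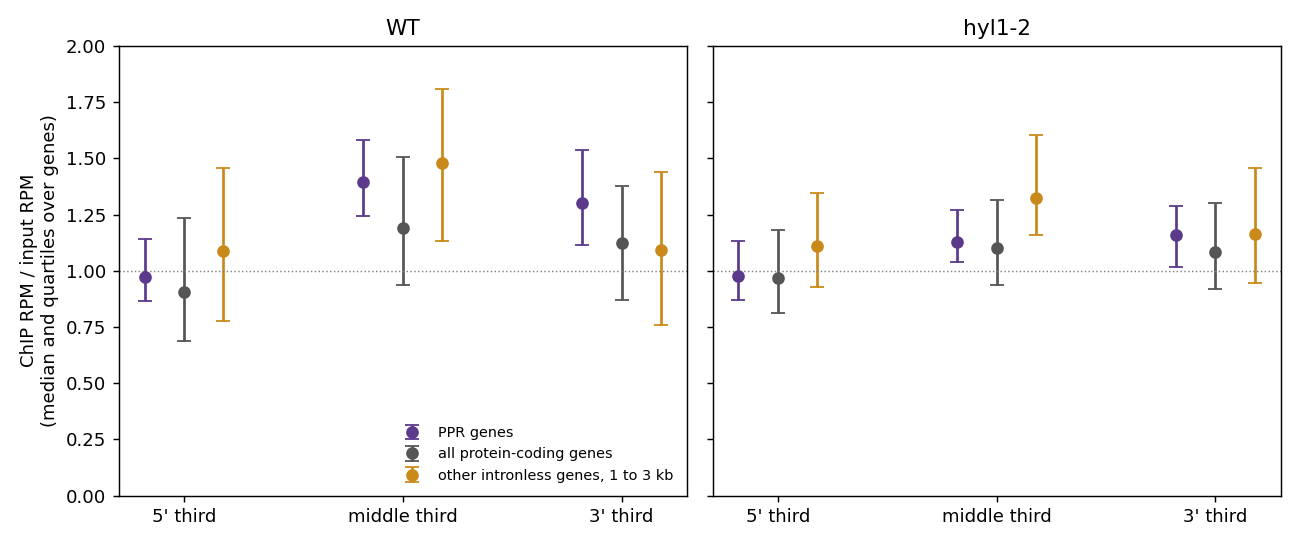
Median ChIP over input (points) with the 25th and 75th percentiles over genes (bars) in the 5′, middle and 3′ part of the gene, for PPR genes, all protein-coding genes and the other intronless genes of 1 to 3 kb. In WT the PPR genes stand at 1.40 in the middle and 1.30 in the 3′ part, and in *hyl1-2* at 1.13 and 1.16.

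Subgroups of the family were set side by side. Members without introns had a median log2 fold change of −0.14 over the gene and 0.55 at the promoter, and those with an intron −0.19 and 0.33. In the 5′ part of the gene 26.5% of the former and 9.64% of the latter were higher. Both shares lay below the 34.4% of all genes and the 36.3% of the other intronless genes of 1 to 3 kb. The 24 members ending Asp-Tyr-Trp, most of which are expected to be editing factors, had the highest WT ratio of these groups, with a median of 1.32, and 1.17 in *hyl1-2*. Their median log2 fold change was −0.18 over the gene and 0.36 at the promoter. Medians on the 5 chromosomes ranged from −0.21 on chromosome 2 to −0.13 on chromosome 5. The 19 members annotated to the chloroplast had −0.13 over the gene and 2 of them were higher (family 10%, background 25.9%). Of the 22 members annotated to the mitochondrion, 8 were higher (36.4%, where the family had 10% and the background was 25.9%), and their median of −0.05 had the widest interval of these groups (−0.23 to 0.52). The 8 were AT1G12775, AT1G16830, AT1G63080, AT1G66345, AT4G32450, AT5G15980, AT5G61370 and AT5G64320. The nearest neighbours of AT1G12775, AT1G16830 and AT1G63080 had fold changes of 2.93, 3.73 and 5.17, and that of AT1G66345 had 0.992. Neighbours of the higher members are described below, and their part in this share was not tested.

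Members with a known role in organelle RNA lay between the thresholds or below them over the whole gene, as the median of the family does. In the plastid, CRR4 (AT2G45350) and OTP85 (AT2G02980) are needed for editing of an ndhD transcript, which encodes a subunit of the NDH complex. Over *CRR4* the inputs held 302 (WT) and 383 (*hyl1-2*) reads and the ChIP libraries 946 and 625, a ratio of 1.47 in WT and 1.22 in *hyl1-2* (fold change 0.832, 0.694 to 0.997). In the same order (WT input, *hyl1-2* input, then both ChIP libraries), *OTP85* had 340, 453, 615 and 609 reads, and a fold change of 1.19 (0.991 to 1.42) that does not exclude 1. Its promoter had 28 ChIP reads in WT and 75 in *hyl1-2* (fold change 3.01, 1.68 to 5.40), the highest among these named genes. *CRR22* (AT1G11290), another plastid editing factor, had 507, 572, 1313 and 872 reads and a fold change of 0.940 (0.811 to 1.09).

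RARE1 and LPA66 are plastid editing factors for accD and psbF transcripts, and both genes were lower over their length. *RARE1* (AT5G13270) had 382, 505, 1162 and 746 reads (fold change 0.775, 0.660 to 0.911). *LPA66* (AT5G48910) had 359, 519, 894 and 622 reads (0.768, 0.649 to 0.910). In both, WT ChIP had the most reads, and it is also the largest library. The promoter fold change was 1.05 for each, with the wide counting error of promoters given above.

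Among mitochondrial factors, LOI1 (AT4G14850, also MEF11) edits mitochondrial RNAs, BIR6 (AT3G48250) and OTP43 (AT1G74900) act in the splicing of nad introns, and AT1G06580 encodes RPF1, which takes part in 5′ processing of nad4 RNA. *BIR6* had 366 and 535 input reads and 1104 and 735 ChIP reads in WT and *hyl1-2*, with a fold change of 0.727 (0.618 to 0.855). *LOI1* had 380, 519, 1027 and 698 reads (0.794, 0.674 to 0.935). *OTP43* departed from both over the whole gene, with 755 and 771 ChIP reads (1.12, 0.933 to 1.35). Its 5′, middle and 3′ parts had 0.622, 1.10 and 1.56, and on the 3′ side it overlaps AT1G74910, with a fold change of 1.51. The promoter of *OTP43* had 102 and 60 ChIP reads. Its fold change of 0.588 (0.367 to 0.942) was the lowest of the 74 promoters with at least 50 reads in each library. *RPF1* had 742 and 622 ChIP reads over the gene (0.944, 0.797 to 1.12). Also in the fixed list were *PNM1* (AT5G60960), whose product is found in mitochondria and the nucleus, with 0.948 (0.786 to 1.14), and *EMB175* (AT5G03800), needed for embryo development, with 0.867 (0.746 to 1.01).

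The members at the ends of the scale were chosen by their values, which are given as a description. The 5 highest whole-gene ratios in WT were those of AT3G11350 (2.06), AT5G28420 (2.03), AT3G11380 (1.95), AT1G63320 (1.84) and AT2G34370 (1.80), and the lowest that of AT2G27229 (0.315). Since the WT ratio is the divisor of the fold change, genes picked for a high WT ratio tend to have a low fold change. AT5G28420, AT3G11350 and AT3G11380 were also among the 5 members with the lowest fold change, with 0.583, 0.599 and 0.647, beside AT1G43010 (0.598) and AT5G14820 (0.658). AT3G11350 (chromosome 3, 3558495 to 3560078) had 239 and 344 input reads against 1045 and 564 ChIP reads in WT and *hyl1-2*. Its fold change was 0.624, 0.571 and 0.602 in the 5′, middle and 3′ parts, so the difference ran along the whole gene. AT5G14820 had 95.8% of its WT ChIP reads at mapping quality 0, the score of reads that fit more than 1 place. On the 12 to 41 remaining reads per library its fold change was 0.934 (0.397 to 2.20), so its place among the lowest rests on reads that cannot be assigned.

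Higher whole-gene fold changes came with neighbouring genes that were higher too. AT5G15980 (chromosome 5, 5213062 to 5215674, plus strand) had input reads of 447 (WT) and 554 (*hyl1-2*) and ChIP reads of 1273 and 2327, with a fold change of 2.35 (2.04 to 2.71). Its promoter had 193 and 769 ChIP reads (4.44, 3.01 to 6.57). The fold change was 3.25 in the 5′ part, 1.45 in the middle and 1.37 in the 3′ part. On its 5′ side, 318 bp away, lies *KIN2*, a cold-regulated gene, whose own fold change was 4.75. AT5G61800 had 603 and 1091 ChIP reads (2.11, 1.74 to 2.56), with 2.97 in its 5′ part and 1.42 in its 3′ part. It overlaps *APC1*, a mitochondrial substrate carrier gene on its 5′ side, with a fold change of 2.35.

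The same held towards the 3′ end in other members. AT5G64320 (1.57, 1.34 to 1.84) had 0.897 in its 5′ part and 2.61 in its 3′ part, 370 bp from *AGP1*, which encodes an arabinogalactan protein and had a fold change of 3.78. AT1G12775 (1.62, 1.37 to 1.91) overlaps *UGE1* (2.93), a gene of sugar nucleotide metabolism, on its 3′ side. AT2G27229, with 87 and 158 ChIP reads (2.08, 1.47 to 2.94), stood apart, as its neighbour *LHW* had 1.18.

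Over all 20 higher members, the nearest protein-coding neighbour was itself higher in 15 (75%) and lower in 0, with a median fold change of 1.54. For the 140 members between the thresholds the neighbour was higher in 19 (13.6%), and for the 40 lower members in 2 (5%) and lower in 13 (32.5%). Of the 20, 12 overlapped the neighbour, so that these pairs share reads, and none had a gap above 500 bp, whereas 9 of the 40 lower members did. In 14 of the 20 (70%) the end facing the neighbour had the higher fold change of the 2 end parts (median 1.64, other end 1.28). This held for 67 of the 140 members between the thresholds (47.9%) and for 15 of the 40 lower ones (37.5%). In 11 of the 20 higher members the inner part of the gene, without 300 bp at each end, was higher as well. These neighbour counts cover PPR genes only, so they do not show whether the pattern is particular to the family. The 25 members with no gene within 500 bp had a median log2 fold change of −0.23 over the gene, with 0 higher and 9 lower (36.0%), and of 0.12 at the promoter, with 10 higher (40.0%) and 9 lower (36.0%). Over the gene, the 9147 tested genes that are isolated in the same way had a median of −0.15, with 22.2% higher and 31.0% lower. At the promoter the 8668 tested had 0.22, with 47.6% higher and 17.3% lower. The middle part of the isolated members had −0.37. The part of the neighbours in these fold changes was not tested.

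**Figure D4:**
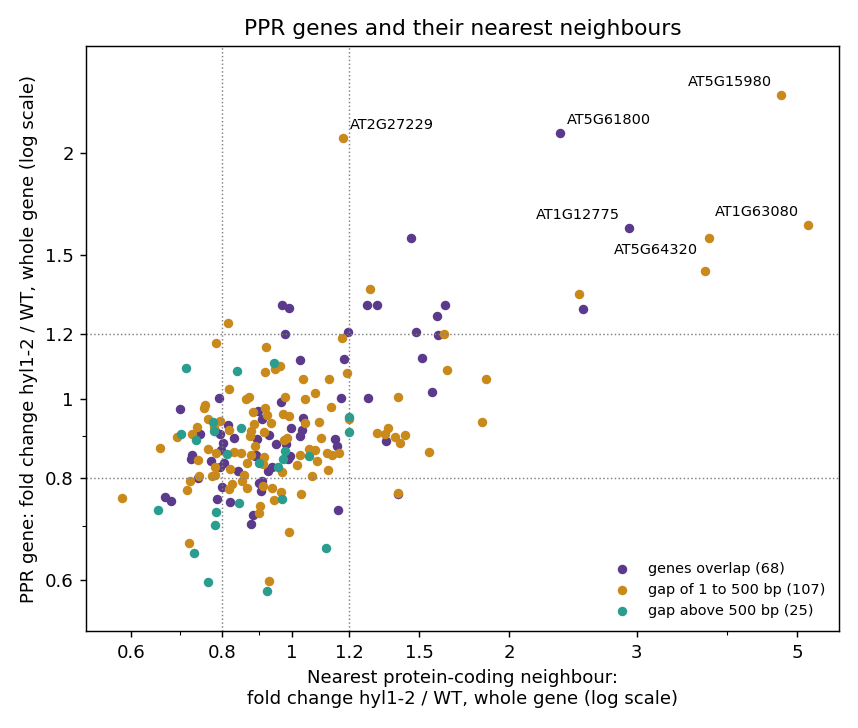
Whole-gene fold change of each PPR gene against that of its nearest protein-coding neighbour, both on log axes, coloured by the gap between them, with dotted lines at 0.8 and 1.2. Of the 20 PPR genes above 1.2, 15 have a neighbour above 1.2, and no PPR gene with a gap above 500 bp lies above 1.2.

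Promoters at the ends of the scale were, beside AT5G15980 and *OTP43*, those of AT1G63080 (5.77), AT4G20770 (3.87), AT1G77150 (0.652) and AT3G46870 (0.686). AT4G20770 had 56 and 131 ChIP reads at the promoter and 1200 and 896 over the gene, where its fold change was 0.945. Its promoter window overlaps another protein-coding gene. Sequences of 200 bases from TAIR10 are shown for the highest and the lowest promoter, 5′ to 3′ towards the gene, with the 3 motifs named above in capitals where they occur (GCCCA is the site II element read on the other strand).
AT1G63080: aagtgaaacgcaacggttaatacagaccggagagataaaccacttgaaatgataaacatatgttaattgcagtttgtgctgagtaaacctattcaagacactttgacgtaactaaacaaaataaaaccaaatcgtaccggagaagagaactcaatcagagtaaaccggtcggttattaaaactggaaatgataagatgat
AT1G74900: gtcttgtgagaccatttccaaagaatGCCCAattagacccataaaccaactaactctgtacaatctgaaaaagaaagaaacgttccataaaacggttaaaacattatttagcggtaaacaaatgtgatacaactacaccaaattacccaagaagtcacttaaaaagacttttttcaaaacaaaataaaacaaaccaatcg
The window of AT1G63080 (chromosome 1, 23390839 to 23391038, minus strand) held none of the 3 motifs and overlaps the neighbouring gene *PP2-A11*. That of AT1G74900, which is *OTP43* (chromosome 1, 28133733 to 28133932, plus strand), held 1 match of TGGGC and is free of other protein-coding genes.

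The genes that miR161 and miR400 can target were then taken one by one. Over the gene their median log2 fold change was −0.12 (−0.31 to 0.16), against −0.16 for the 187 members without a site. At the promoter it was 0.23 (−0.13 to 0.71), against 0.50 (0.39 to 0.60). Of the 13, 2 were higher over the gene and 2 lower (15.4% each, background 25.9% and 21.4%). In the inner part of the gene, without 300 bp at each end, 1 was higher (7.69%) and 6 were lower (46.2%). In that window 6% of all members were higher and 32.5% lower, against 23.4% and 26.5% of all genes. The MIR161 locus had 65 (WT) and 80 (*hyl1-2*) ChIP reads against 55 and 67 input reads (fold change 1.61, 0.994 to 2.62), and MIR400 had 73 and 79, with 41 and 57 (1.24, 0.745 to 2.07). Neither interval excludes 1, and the gene that holds MIR400 had 0.967.

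On chromosome 1, 4 of the 13 site genes and AT1G63320, which has no site, lie in a span from 23298948 to 23509484 (210.5 kb). The span holds 62 protein-coding genes, of which 11 are annotated with the word pentatricopeptide. These genes are near copies, and many of their reads fit more than 1 place. In WT ChIP the share of whole-gene reads at mapping quality 0 was 84.3% for AT1G62910, 31.4% for AT1G63080, 47.6% for AT1G63320, 89.5% for AT1G63330 and 69.2% for AT1G63400. Over whole libraries that share was 11.9% to 14.5%.

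AT1G63080 (23387574 to 23390838, minus strand), which the annotation names as a locus that gives trans-acting siRNAs, was the member of the cluster that stood out. Its input reads were 544 (WT) and 696 (*hyl1-2*) and its ChIP reads 1274 and 1667 (fold change 1.63, 1.43 to 1.87). Its promoter had 54, 73, 123 and 601 reads, a ratio of 1.07 in WT and 6.18 in *hyl1-2*. Without reads at mapping quality 0 the values were 1.70 (1.45 to 2.00) and 5.66 (3.78 to 8.48). The fold change was 2.27 in the 5′ part, 1.15 in the middle and 1.23 in the 3′ part. *PP2-A11*, a phloem lectin gene 129 bp away on the 5′ side, had a fold change of 5.17.

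The others in the span were lower or between the thresholds. AT1G62910 had 344, 466, 909 and 633 reads (0.821, 0.691 to 0.975), and 0.689 (0.453 to 1.05) on unique reads, and no read of its promoter had a mapping quality above 0, so the promoter value of 1.64 cannot be assigned to it. AT1G63330 had 348, 501, 1199 and 780 reads (0.721, 0.612 to 0.850). On the 20 to 126 reads of unique place it was 1.11 (0.574 to 2.15). That interval holds both 0.721 and 1, so the unique reads do not settle its direction. AT1G63400 had 382, 505, 937 and 662 reads (0.853, 0.723 to 1.01), and 0.823 (0.599 to 1.13) on unique reads. AT1G63320 had 116, 184, 454 and 301 reads (0.667, 0.507 to 0.878), and 0.709 (0.464 to 1.08) on unique reads. Of the site genes in the span that are outside the 200, *RPF3* had 0.994 and the other 5 ranged from 0.746 to 1.05.

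Outside the cluster, the members with a site had at most 1.80% of whole-gene reads at mapping quality 0 in any library. This does not hold for all site genes outside the 200, since AT1G62590 had 96.6% in WT input. AT1G06580 (*RPF1*), with the perfect miR400 site, had 0.944 as given above, and 1.00 (0.624 to 1.61) at the promoter. AT3G22470, with the next best miR400 site, had 735 and 652 ChIP reads (1.11, 0.940 to 1.32). AT5G16640, which has sites for all 3 miRNAs, had 832 and 911 ChIP reads (1.34, 1.14 to 1.59), and its neighbour on the 3′ side, 159 bp away, had 2.49. AT1G64580 (0.806, 0.676 to 0.960) and AT1G77405 (0.777, 0.628 to 0.963) had intervals below 1. The other 4, AT1G22960, AT2G06000, AT3G16710 and AT5G65560, lay between 0.890 and 1.02, with intervals that hold 1.

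**Figure D5:**
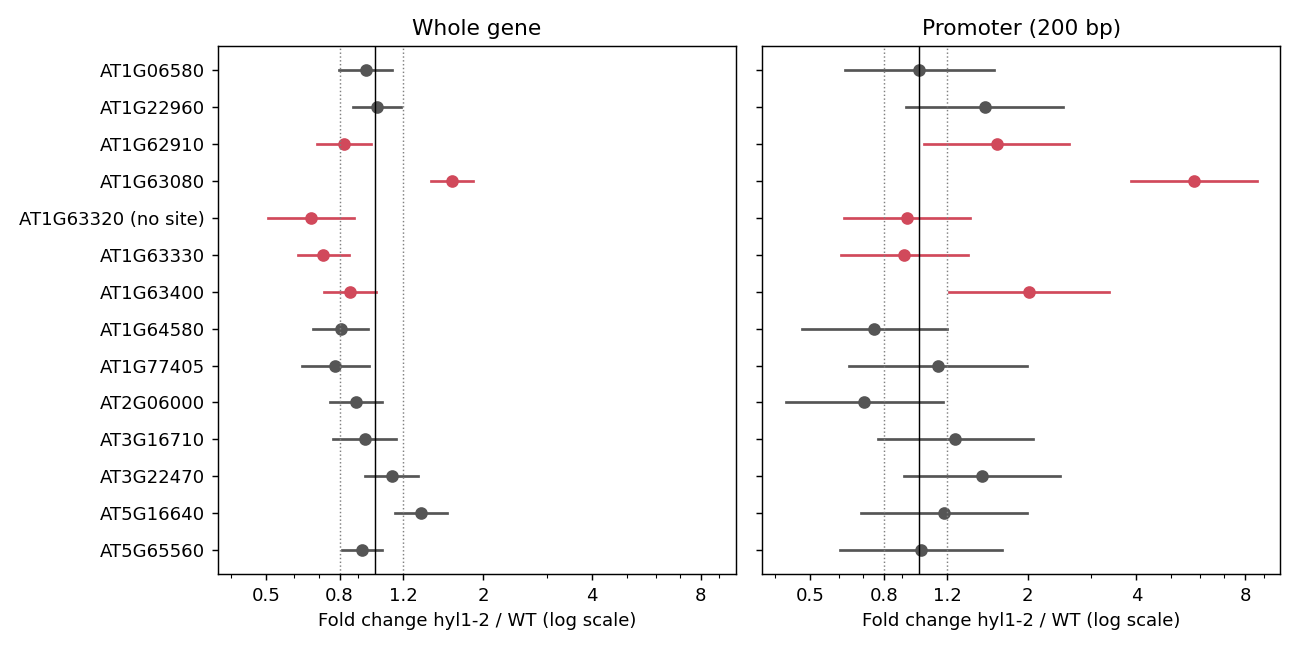
Fold change with its 95% interval for counting error over the whole gene and at the promoter of the 13 site genes and AT1G63320, on log axes, with members of the chromosome 1 cluster in red and dotted lines at 0.8 and 1.2. AT1G63080 is the highest in both panels (1.63 and 5.77), and AT1G63320 the lowest over the whole gene (0.667).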

How the data were processed

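Per the labels and the study's methods, the authors trimmed the reads to 50 bp, aligned them to TAIR10 with Bowtie, removed duplicates with SAMtools and extended the reads. The deposited values are the start, end and strand of each read. They were not normalized. Each deposited line also has a score, Bowtie's mapping quality, which served here only in an alternative and to give shares of ambiguous reads. Input intervals spanned 175 bp and ChIP intervals 200 bp. At chromosome ends, where they are clipped, the shortest were 50 bp and 75 bp, so 125 bp had been added to each read, towards higher coordinates whatever the strand, and the ChIP reads were longer than the trimming given above. Longer intervals overlap a short window more often, which raises its ChIP over input in both genotypes. Counted by midpoint, the median promoter ratio of the members was 0.505 in WT and 0.716 in *hyl1-2*, against 0.568 and 0.751. The reference was TAIR10.1 of RefSeq, whose nuclear chromosomes have the coordinates of TAIR10.

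A read sharing 1 bp or more with a window was counted, in Python 3.11.15 with NumPy 2.4.6, pandas 2.3.3 and SciPy 1.17.1, and figures were drawn with Matplotlib 3.10.9. Scaling was by library total, and a window needed 10 reads in every library. Fold change intervals (95%) were computed from the 4 counts, those of shares by Wilson's method and those of medians from order statistics. All cover counting error or the choice of genes only, not variation between plants, and PCR copies that carry no molecular identifier are not independent. Counting was checked by a direct recount of randomly drawn genes in the WT ChIP library, and fold changes were tested on simulated counts.

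The members, the lists and the alternatives were chosen with earlier results of these data known. Genes named were members of a fixed list of PPR genes with known roles, members with a site, the 5 highest and 5 lowest members by WT ratio and by whole-gene fold change, and the 3 highest and 3 lowest promoters, taken from promoters with 50 reads or more in every library. The 8 higher mitochondrial members and other neighbouring genes were named after their values were seen, and the 3 parts of the gene, the neighbours and the inner part of the gene were also added then. The Asp-Tyr-Trp class was read from the last codons of the annotated coding sequences, in place of a protein table.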

Additional observations from a re-analysis of the deposited data

How the results depend on the processing

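With 1 library per condition no library could be left out. No paired analysis was possible because each genotype has 1 ChIP and 1 input library and no test was made. Scaling on intergenic windows moved most values. It shifted all log2 fold changes by −0.17 and gave median log2 fold changes of 0.31 at the promoter and −0.32 over the gene, with 34 promoters lower, 9 whole genes higher and 101 lower. The 3 parts of the gene then had −0.17, −0.45 and −0.37, and the median log2 ratio was 1.27 in WT and 0.93 in *hyl1-2*. A minimum of 50 reads left 74 promoters, with a median of 0.36, 39 higher and 6 lower. Without division by input 17 whole genes were lower and the middle part had −0.24. At thresholds of 1.5 and its inverse, 83 promoters were higher and 5 lower, and 7 whole genes were higher and 5 lower. For these thresholds and for the minimum of 50 reads no shares of all genes are given, so those counts describe the members only. Correction for GC content gave −0.12 over the gene, −0.23 in the middle part and −0.15 in the 3′ part. Without the first 200 bp of the gene the log2 ratio in WT was 0.32. In the inner part of the gene, without its first and last 300 bp, the median log2 fold change was −0.23, with 12 higher and 65 lower, and the log2 ratios were 0.40 in WT and 0.14 in *hyl1-2*. That setting was added after the data had been seen.

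The 25 members with no gene within 500 bp gave 0.12 at the promoter (10 higher, 9 lower), −0.23 over the gene (0 higher, 9 lower), −0.37 in the middle part, −0.30 in the 3′ part, a log2 ratio of 0.22 in WT and one of −0.0056 in *hyl1-2*, where the sign turned. Of the single genes, AT1G63330 turned to 0.15 over the gene without reads of mapping quality 0, AT3G11380 to 0.15 at the promoter when reads were counted by their midpoint, and AT3G53700 to −0.028 in its inner part. Of 126 summary values 88 stayed within their interval or within 1.5 times the count, and of the values for single genes 1172 did. The cause was not tested in any case. At the promoter, where the median count was 60 in WT ChIP, depth limits single fold changes most.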
